A study of Mus musculus with 10 samples.

Results

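The 39 genes described here encode the enzymes that load amino acids onto transfer RNAs, together with the scaffold proteins that hold some of these enzymes in 1 complex. They were taken from a named list of 20 cytosolic aminoacyl-tRNA synthetase genes, 16 mitochondrial synthetase genes and the 3 scaffold genes Eef1e1, Aimp1 and Aimp2. Of the 39, 37 had a transcript cluster of their own on the array, meaning a set of probes annotated to that gene alone, among 65956 clusters tested in all. These were 18 of 20 cytosolic, 16 of 16 mitochondrial and 3 of 3 scaffold genes, with exactly 1 cluster each. Dars was not analysed here because the annotation used gives no cluster under that name. Aars shares its only cluster with Exosc6 and was left out of the counts; that shared cluster had a mean level of 6.53 and passed the test in none of the comparisons.

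Each synthetase joins 1 amino acid to its matching tRNAs, so that the ribosome can read codons as amino acids. Cells keep a cytosolic set and a mitochondrial set of these enzymes, almost all of them encoded by separate nuclear genes, whose names end in 2 for the mitochondrial set. Gars and Kars each serve both compartments from a single gene and are counted here as cytosolic. In animal cells, several cytosolic synthetases are assembled with the scaffolds Aimp1, Aimp2 and Eef1e1 into the multi-synthetase complex, while the remaining enzymes work outside it. A fully grown oocyte stores mRNAs for later use and loses many of them while it completes the first meiotic division, so the level of a stored transcript can change without new transcription.

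The arrays measured RNA of pooled oocytes at the germinal vesicle (GV) stage, before meiosis resumes, and at metaphase II (MII), after ovulation. WT females gave 2 GV and 2 MII samples, and Patl2-/- females gave 3 GV and 3 MII samples, each on 1 Clariom D mouse array, 10 in all. Patl2 encodes a putative RNA-binding protein of oocytes, and the knockout lacks exon 7, removed from a floxed allele by a Cre transgene under the adenovirus EIIa promoter, which is active in early embryos and so reaches the germ line. Both genotypes were primed with 5 UI of PMSG; GV oocytes were taken from punctured ovaries after 44 h, and ovulated oocytes 12 h (as labelled; the methods give a slightly longer interval) after 5 UI of hCG, itself given 48 h after PMSG. Females were juvenile to young adult. Samples held 20 to 32 oocytes at GV and 28 to 46 at MII according to the labels, which do not say which animals contributed to a pool. In the account of the study, females of both genotypes ovulate some oocytes that are not at MII, more of them in Patl2-/- females, and the labels do not say how the ovulated pools were sorted. The same 250 pg of RNA was labelled for every sample, so a level is relative to the total RNA of the pool. The study reports less RNA per oocyte at MII than at GV. A change between the stages is therefore a relative one, and a rise need not hold per oocyte. With less RNA per oocyte at MII, a fall relative to total RNA would also be a fall per oocyte.

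All levels are log2 values after RMA, a procedure that corrects background, aligns the intensity distributions of the arrays and summarises the probes of a cluster, so a difference of 1 is a doubling. The Patl2 cluster read 11.70 and 10.92 in WT GV oocytes against 7.71, 7.36 and 8.07 in Patl2-/- GV oocytes, and 8.73 and 8.55 against 6.44, 6.10 and 6.59 at MII, so the genotype groups did not overlap at either stage. Of 12 oocyte markers, 11 or 12 lay above the 90th percentile of the array's negative control probes in every group, against 2 to 5 of 15 granulosa and cumulus markers and 1 or 2 of 8 blood, vessel and stroma markers. That percentile lay between 6.14 and 6.46 on the 10 arrays and is used below as the background. The lowest correlation across clusters between arrays of a group was 0.989.

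Sequence is shown for the gene whose level differed most between the genotypes and for the promoters that hold a motif tied to amino acid supply. RefSeq promoters (GRCm38.p6, 250 bases before to 50 after a gene's start) were matched to 28 of the 37 members by symbol. Cars, Hars, Lars, Nars, Rars, Vars, Wars, Hars2 and Pars2 had no entry. The promoters were searched on both strands for TGATGNAA, the core of the element bound by ATF4 in amino acid starvation, and for CCAAT, the box bound by NF-Y. No match of one motif overlapped a match of the other in these members, and a match is a description of the letters, not evidence that a factor binds there.

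TGATGNAA was found in 4 of the 28 members and in 3.97% of the 32851 promoters in the table. All 4 were cytosolic synthetases, and in Gars, Iars and Tars it lies on the strand opposite to the gene. The 30 bases around each match follow, written along the gene, with the motif or its reverse complement in capitals, from chr6:55037960-55037989 (+), chr13:49682126-49682155 (+), chr15:11399655-11399684 (-) and chr4:129189895-129189924 (+).
Gars: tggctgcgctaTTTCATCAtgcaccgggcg
Iars: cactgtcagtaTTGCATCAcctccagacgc
Tars: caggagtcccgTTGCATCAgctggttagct
Yars: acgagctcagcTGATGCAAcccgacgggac

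CCAAT was found in 15 of the 28 members and in 37.4% of all promoters. The 250 bases before the start of Eef1e1 (chr13:38659029-38659278, minus strand) hold 1 match, shown in capitals, whose first base lies 57 bases before the start.
Eef1e1: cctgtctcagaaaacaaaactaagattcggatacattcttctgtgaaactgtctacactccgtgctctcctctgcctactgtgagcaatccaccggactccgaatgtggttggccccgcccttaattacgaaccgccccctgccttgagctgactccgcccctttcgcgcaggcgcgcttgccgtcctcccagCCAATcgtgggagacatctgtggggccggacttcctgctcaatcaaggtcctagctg

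The classes stood at different distances from background. Of the 18 cytosolic genes, 13 were above background on all 10 arrays, 3 on some and 2 (Vars and Yars) on none. All 3 scaffold genes were above it on every array. Of the 16 mitochondrial genes, only Fars2 and Rars2 were above it on all arrays, 4 were above it on some and 10 on none. Levels of different probes cannot be ranked against each other, so this says only which genes were measured clear of background. Several clusters carried the same value on many arrays: Vars read 5.52 on all 10, Yars shared a value on 9 and Qars on 8, so these give little information on a difference.

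The first question was which members differed between Patl2-/- and WT oocytes. Eef1e1 was the only member that passed the test, lower without Patl2 at GV and at MII alike. The product of Eef1e1, also called AIMP3, docks methionyl-tRNA synthetase to the complex and, in other mammalian cells, enters the nucleus in the response to DNA damage. At GV, Eef1e1 read 13.21 and 13.57 in WT against 12.27, 12.14 and 12.34 in Patl2-/- oocytes. At MII it read 13.33 and 13.16 in WT against 11.92, 11.80 and 11.52 in Patl2-/- oocytes. Every Patl2-/- array was thus below every WT array, by at least 0.88 at GV and 1.24 at MII.

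The tests below are limma fits over all 10 arrays, with p-values adjusted by the Benjamini-Hochberg method over the 65956 clusters, and a gene is called when the adjusted p is under 0.05. Eef1e1 fell by 1.14 (SE 0.15) on the log2 scale at GV, 2.21-fold lower, with an adjusted p of 0.0499, and by 1.50 (SE 0.15) at MII, 2.82-fold lower, with an adjusted p of 0.0122. Averaged over both stages it fell by 1.32 (SE 0.11, 95% interval -1.56 to -1.08, adjusted p = 0.00295). At GV, 1 of 37 members was called lower and 0 higher, against 0.091% and 0.0303% of all clusters. At MII, 1 of 37 was called lower and 0 higher, against 0.462% and 0.367% of all clusters. In the average, 1 of 37 was called lower and 0 higher, against 1.11% and 0.776%. Among clusters with a mean level of at least 6, 0.264% were called lower at GV, 1.59% at MII and 3.82% in the average. Those called higher were 0.116%, 1.38% and 2.83%. Of the 23 members at that level, 1 (4.35%) was called lower each time, which in the average is close to the share of other transcripts.

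The GV call of Eef1e1 stands at the threshold. It was lost in 9 of the 10 fits that left out 1 array (all but that without Patl2-/- MII replicate 3), with adjusted p between 0.0479 and 0.154, while its size stayed between -1.32 and -0.96. The MII call was lost when WT MII replicate 1 was left out (adjusted p = 0.0969), and the averaged call was kept in all 10 such fits (0.00746 to 0.022). The hybridisation controls, which are added after labelling and carry no oocyte RNA, moved the other way and read 11.85 ± 0.14 (SD, n = 3) in Patl2-/- against 11.36 ± 0.15 (n = 2) in WT at GV, and 11.63 ± 0.05 against 11.36 ± 0.04 at MII; their part in the result was not tested. The mean over 15 granulosa and cumulus markers ran from 5.47 to 6.05 in Patl2-/- against 5.28 to 5.39 in WT oocytes at MII, and overlapped at GV. The mean over 12 oocyte markers ran from 14.64 to 14.77 against 14.47 to 14.49 at MII, and overlapped at GV. The mean over 8 blood, vessel and stroma markers was lower in Patl2-/- oocytes, from 5.29 to 5.38 against 5.45 to 5.46 at GV and from 5.35 to 5.40 against 5.57 to 5.58 at MII. Of these markers only Zp3, a zona pellucida gene, was called, higher by 0.53 in Patl2-/- oocytes at MII (adjusted p = 0.0488), and their part in the result was not tested. In a pool, fewer oocytes with a transcript and less of it in each oocyte cannot be told apart.

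**Figure D1:**
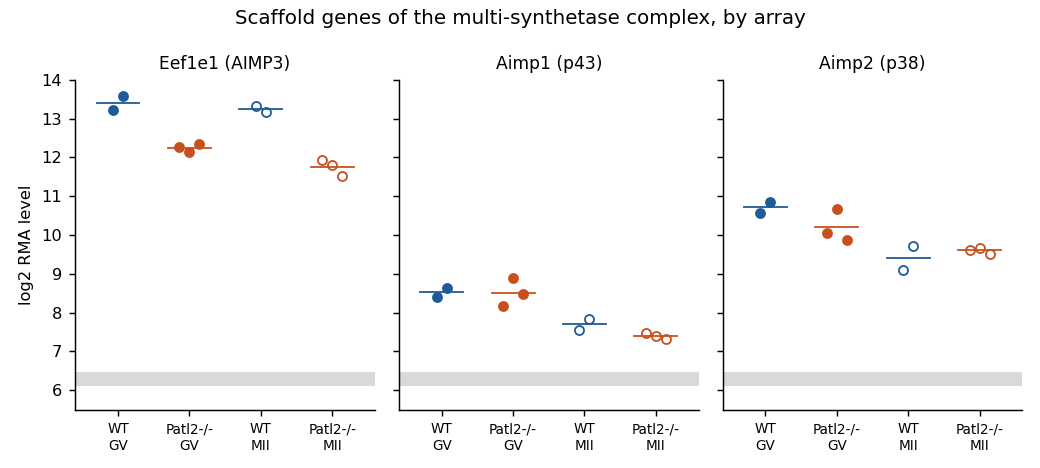
Log2 RMA level of the 3 scaffold genes on each array (points; lines are group means), with WT in blue, Patl2-/- in orange, GV filled and MII open; the grey band spans the 90th percentile of the negative controls, 6.14 to 6.46. The Patl2-/- arrays lie below all WT arrays for Eef1e1 at both stages, while the GV arrays of Aimp1 and Aimp2 overlap between genotypes.

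The other scaffold genes did not pass the test between the genotypes. Aimp2, the central scaffold, which contacts lysyl-tRNA synthetase, read 10.57 and 10.85 in WT and 10.05, 10.68 and 9.86 in Patl2-/- oocytes at GV, with overlapping arrays and a difference of -0.51 (95% interval -1.11 to 0.08). At MII it read 9.10 and 9.72 against 9.62, 9.68 and 9.52, a difference of 0.20 (-0.40 to 0.79). Aimp1, which binds arginyl-tRNA synthetase and can be cut to release a cytokine, differed by -0.01 (-0.47 to 0.44) at GV and by -0.30 (-0.76 to 0.15) at MII. The lower limits of these 4 intervals ran from -1.11 to -0.40, so a fall of that size could have gone undetected.

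None of the 18 cytosolic and 16 mitochondrial synthetases was called between the genotypes at either stage. At GV, the cytosolic median difference was 0.00 and the mitochondrial median -0.00, beside a median of 0.02 over all clusters. At MII they were -0.09 and -0.08, beside -0.02 over all clusters. At MII, 7 of 37 members had an unadjusted p under 0.05, all of them lower in Patl2-/- oocytes: Cars, Rars, Sars, Cars2, Sars2, Tars2 and Eef1e1. Over all clusters, 7.54% were lower and 4.75% higher at that unadjusted threshold. Among clusters with a mean level of at least 6 the share that was lower was 16.3%, beside 5 of the 23 members at that level. At GV, Eef1e1 was the only one, beside 4.71% of all clusters lower and 4.52% higher. None of the synthetases was called between the genotypes after median centring, cyclic loess or the second quantile normalisation.

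**Figure D2:**
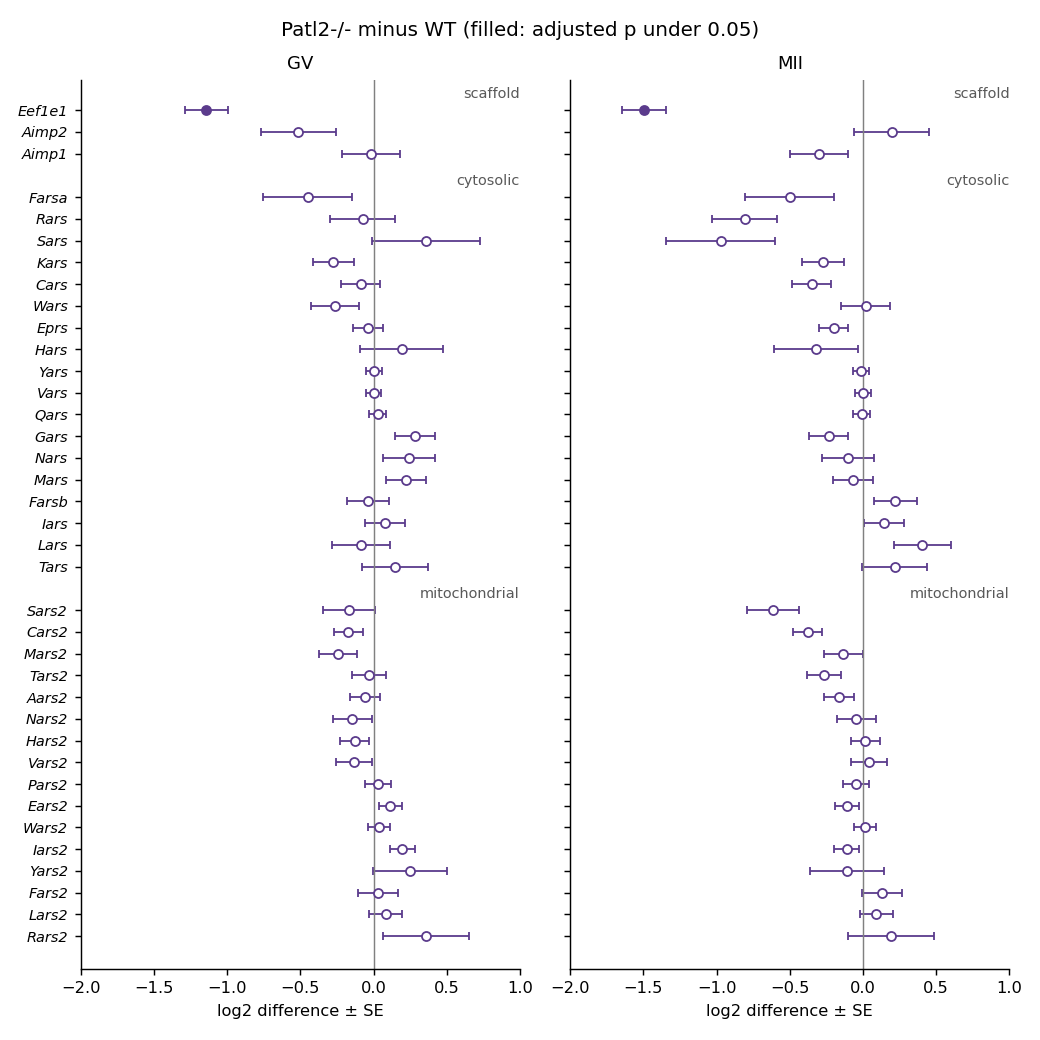
Log2 difference, Patl2-/- minus WT, with its standard error, for each of the 37 members at GV (left) and MII (right), in the classes scaffold, cytosolic and mitochondrial; filled points have an adjusted p under 0.05. Only Eef1e1 is filled, at -1.14 and -1.50, and the other members lie between -0.97 and 0.41.

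The members next in size at MII were Sars and Rars. Sars, the seryl-tRNA synthetase, which also charges the selenocysteine tRNA with serine, read 9.51 and 9.44 in WT MII oocytes and 8.43, 9.21 and 7.86 in Patl2-/- MII oocytes. The Patl2-/- arrays were all lower but spread more widely, and the difference of -0.97 (SE 0.37) had an adjusted p of 0.332. Rars, the arginyl-tRNA synthetase of the complex, read 9.99 and 9.68 in WT against 9.07, 8.85 and 9.15 in Patl2-/- oocytes, a difference of -0.81 (SE 0.22, adjusted p = 0.174) with no overlap. At GV the same genes differed by 0.36 (SE 0.37) and -0.07 (SE 0.22), with overlapping arrays.

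Farsa, the catalytic subunit of phenylalanyl-tRNA synthetase, had the largest GV difference among the cytosolic genes, -0.45 (SE 0.30, adjusted p = 0.756). At GV it stood at 9.18 and 10.31 in WT oocytes and at 9.16, 9.17 and 9.55 without Patl2, so the groups overlapped and 1 WT array lay above the other 4. Among the mitochondrial genes, Sars2 read 7.12 and 7.40 in WT MII oocytes against 6.99, 6.52 and 6.43 in Patl2-/- MII oocytes, a difference of -0.61 (SE 0.18, adjusted p = 0.2). Cars2, the mitochondrial cysteinyl-tRNA synthetase, differed by -0.38 (SE 0.10, adjusted p = 0.156), below background on all arrays of both groups. Rars2 and Yars2 had the largest mitochondrial differences at GV, 0.36 (SE 0.30) and 0.25 (SE 0.25), both with overlapping arrays.

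Whether the genotype difference itself changed from GV to MII was tested as an interaction. None of the 37 members was called, against 0% of all clusters, and 4 had an unadjusted p under 0.05 (Gars, Rars, Sars and Iars2), beside 5.99% of all clusters. The largest estimate was that of Sars, -1.33 (SE 0.52, adjusted p = 0.811). The difference for Eef1e1 was -0.36 (95% interval -0.84 to 0.13), so its fall was not shown to be deeper at MII than at GV.

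The second question was how these transcripts changed between GV and MII in each genotype. In WT oocytes 1 member rose (Iars) and 5 fell (Rars, Cars2, Rars2, Yars2 and Aimp2), that is 2.7% and 13.5% of the 37, beside 1.96% and 5.19% of all clusters. In Patl2-/- oocytes 3 rose (Iars, Kars and Wars) and 11 fell (Mars, Rars, Sars, Cars2, Ears2, Iars2, Rars2, Sars2, Tars2, Yars2 and Aimp1), 8.11% and 29.7%, beside 3.37% and 7.14% of all clusters. Most clusters on the array lie near background, so the 23 members with a mean level of at least 6 are set beside the 16316 clusters at that level. There, 17.4% of members and 17.4% of clusters fell in WT, and 30.4% and 22.2% in Patl2-/- oocytes; 4.35% and 6.2% rose in WT, and 13% and 11.2% in Patl2-/- oocytes. The WT shares are thus close to those of other transcripts at that level.

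Other measures differed between the stages as well. The 5 GV arrays had 16601 to 16913 clusters above a level of 6 and the 5 MII arrays 15624 to 15856. The labelling controls read 4.56 to 5.12 at GV and 5.14 to 5.87 at MII. Of the 15 granulosa and cumulus markers, 1 fell in WT, and 3 fell and 1 rose in Patl2-/- oocytes, while the mean over the list ranged from 5.54 to 6.05 in WT GV, 5.89 to 5.96 in Patl2-/- GV, 5.28 to 5.39 in WT MII and 5.47 to 6.05 in Patl2-/- MII oocytes. Of the 12 oocyte markers, 4 fell in WT, 3 fell in Patl2-/- oocytes and none rose. Their mean lay between 14.98 and 15.07 on the GV arrays, above all MII arrays (WT 14.47 and 14.49, Patl2-/- 14.64 to 14.77). No blood, vessel or stroma marker was called. All clusters gave 5.19% lower and 1.96% higher in WT, and 7.14% and 3.37% in Patl2-/- oocytes. At a mean level of at least 6 these shares were 17.4%, 6.2%, 22.2% and 11.2%, in that order. The part of these measures in the maturation results was not tested.

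The direction of these counts depends on the scaling of the arrays. When the deposited values were quantile normalised once more, 6 members rose and 3 fell in WT, and 9 rose and 8 fell in Patl2-/- oocytes. The balance over the whole array turned as well: under that scaling 7.11% of all clusters rose and 4.3% fell in WT, and 9.34% rose and 5.42% fell in Patl2-/- oocytes. Among clusters with a mean level of at least 6 the median change went from -0.05 to 0.28 in WT and from -0.06 to 0.24 in Patl2-/- oocytes. Under that scaling the calls of Rars and Aimp2 in WT and of Sars, Ears2 and Sars2 in Patl2-/- oocytes were lost, while Cars2, Rars2 and Yars2 still fell and Iars still rose in both genotypes. The maturation comparisons have no array in common. Of the 5 WT falls, 4 were also called in Patl2-/- oocytes, which is 80% of the WT and 36.4% of the Patl2-/- falls, against 84.3% and 61.3% for all clusters that fell.

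**Figure D3:**
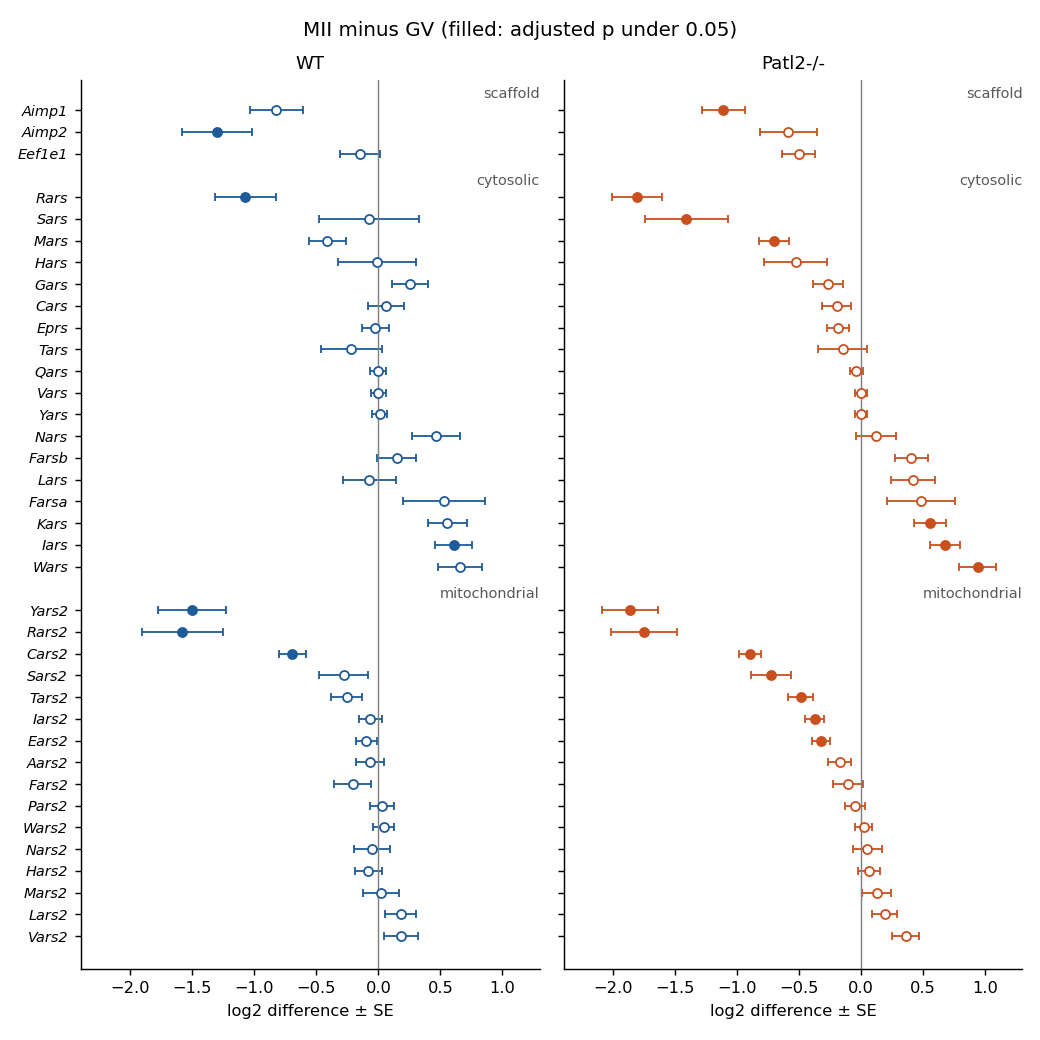
Log2 difference, MII minus GV, with its standard error, for the 37 members in WT (left, blue) and Patl2-/- oocytes (right, orange), in the classes scaffold, cytosolic and mitochondrial; filled points have an adjusted p under 0.05. In this scaling the filled points among the mitochondrial genes lie below 0, and the cytosolic genes spread on both sides, from -1.07 to 0.66 in WT and from -1.81 to 0.94 in Patl2-/- oocytes.

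All 3 scaffold genes had a lower mean at MII than at GV in both genotypes, except that Eef1e1 was higher by 0.23 in WT after the second quantile normalisation. In each genotype 1 of 3 was called lower. Of all clusters, 5.19% fell in WT and 7.14% in Patl2-/- oocytes, or 17.4% and 22.2% of those with a mean level of at least 6. A list of 3 genes is too short to be set against these shares. Aimp2 fell in WT, from 10.57 and 10.85 to 9.10 and 9.72, a change of -1.30 (SE 0.28, adjusted p = 0.0301). In Patl2-/- oocytes it differed by -0.59 (SE 0.23, adjusted p = 0.171). Its WT call was lost in 6 of the 10 fits with 1 array left out (either WT GV array, WT MII replicate 1 or any Patl2-/- MII array, highest adjusted p 0.176), and the test between the 2 changes gave 0.71 (SE 0.36, adjusted p = 0.863). Aimp1 fell in Patl2-/- oocytes, from 8.16, 8.89 and 8.47 to 7.47, 7.41 and 7.31, a change of -1.11 (SE 0.18, adjusted p = 0.00546) that was kept in all 10 such fits. In WT it went from 8.40 and 8.64 to 7.55 and 7.85, a difference of -0.82 (SE 0.22, adjusted p = 0.065) without overlap. Eef1e1 differed by -0.15 (SE 0.16) in WT and by -0.50 (SE 0.13, adjusted p = 0.0513) in Patl2-/- oocytes; the latter was called after median centring (-0.48, adjusted p = 0.0468) and was -0.03 after the second quantile normalisation.

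Of the 7 cytosolic enzymes of the complex that were measured (Eprs, Iars, Kars, Lars, Mars, Qars and Rars), 1 rose and 1 fell in WT, and 2 rose and 2 fell in Patl2-/- oocytes. Of all clusters, 1.96% rose and 5.19% fell in WT, and 3.37% rose and 7.14% fell in Patl2-/- oocytes. Among those with a mean level of at least 6, 6.2% rose and 17.4% fell in WT, and 11.2% and 22.2% in Patl2-/- oocytes. Rars had the deepest change of the cytosolic genes in both genotypes. It went from 10.56 and 11.26 to 9.99 and 9.68 in WT, a fall by 1.07 (SE 0.24, adjusted p = 0.0365), and from 10.97, 10.57 and 10.96 to 9.07, 8.85 and 9.15 in Patl2-/- oocytes, a fall by 1.81 (SE 0.20, adjusted p = 0.000924). The WT call was lost in 8 of the 10 fits with 1 array left out (all but those without WT GV replicate 1 or Patl2-/- GV replicate 2, highest adjusted p 0.165), whereas the Patl2-/- call was kept in all 10.

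Iars, the isoleucyl-tRNA synthetase, rose relative to total RNA in both genotypes, and the change per oocyte was not measured. It read 11.45 and 11.27 at GV against 11.85 and 12.08 at MII in WT, and 11.18, 11.54 and 11.59 against 12.17, 12.05 and 12.10 in Patl2-/- oocytes. The stages did not overlap, with a rise of 0.61 (SE 0.15, adjusted p = 0.049) in WT and 0.67 (SE 0.12, adjusted p = 0.00989) in Patl2-/- oocytes. The WT call was lost in 9 of 10 fits with 1 array left out (all but that without Patl2-/- GV replicate 1, highest adjusted p 0.216) and after centring the arrays on their medians.

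Kars, the lysyl-tRNA synthetase of cytosol and mitochondria, rose by 0.55 (SE 0.13, adjusted p = 0.0286) in Patl2-/- oocytes, from 12.72, 12.96 and 12.83 to 13.43, 13.47 and 13.28. The call was lost without Patl2-/- GV replicate 1 or 3 or any Patl2-/- MII array (highest adjusted p 0.0952). The WT estimate was almost the same, 0.56 (SE 0.16), from 12.89 and 13.33 to 13.56 and 13.78, with an adjusted p of 0.0806, and was called after cyclic loess (0.60, adjusted p = 0.0434) and after the second quantile normalisation (0.94, adjusted p = 0.00658). Mars, the methionyl-tRNA synthetase, which charges both initiator and elongator tRNAs, stood close to background and read 6.94, 6.57 and 6.79 at GV against 5.99, 5.94 and 6.27 at MII in Patl2-/- oocytes. It fell by 0.70 (SE 0.12, adjusted p = 0.00861); as no MII array was above background, the change is given as at least 1.33-fold, from the GV mean to the background of the MII arrays. In WT it went from 6.49 and 6.60 to 6.06 and 6.20, a difference of -0.41 (adjusted p = 0.183).

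Eprs, the bifunctional glutamyl-prolyl enzyme, differed by -0.02 (SE 0.11) in WT and -0.19 (SE 0.09) in Patl2-/- oocytes, and by 0.44 and 0.30, also uncalled, after the second quantile normalisation. Qars differed by 0.00 and -0.04, with the same value on 8 arrays, but rose by 0.36 and 0.33 after the second quantile normalisation. Lars, near background, differed by -0.07 and 0.42 and was not called, but was called higher in Patl2-/- oocytes after that normalisation (0.61, adjusted p = 0.0475).

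Among the 11 cytosolic enzymes outside the complex, none was called in WT, and 1 rose (Wars) and 1 fell (Sars) in Patl2-/- oocytes. In Patl2-/- oocytes 3.37% of all clusters rose and 7.14% fell, or 11.2% and 22.2% of those with a mean level of at least 6. The WT shares were 1.96% and 5.19%, or 6.2% and 17.4%. Wars, the tryptophanyl-tRNA synthetase, which interferon induces in many cell types, read 9.34, 9.44 and 9.69 at GV against 10.60, 10.39 and 10.30 at MII, a rise of 0.94 (SE 0.15, adjusted p = 0.00511). In WT it read 9.77 and 9.74 against 10.17 and 10.66, a difference of 0.66 (SE 0.18, adjusted p = 0.0759), also without overlap, which was called after the second quantile normalisation (1.04, adjusted p = 0.0117). Sars read 10.05, 9.44 and 10.23 at GV against 8.43, 9.21 and 7.86 at MII, a fall by 1.41 (SE 0.33, adjusted p = 0.0319) that was lost without either WT MII array and without replicate 1 or replicate 3 of each Patl2-/- group (highest adjusted p 0.101). In WT it read 9.44 and 9.66 against 9.51 and 9.44, a difference of -0.08 (SE 0.41), and, as given above, the change did not pass the test of a difference between the genotypes.

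The other free enzymes showed no called change in the deposited scaling, but after the second quantile normalisation Farsb rose in both genotypes (0.64 and 0.78), Gars in WT (0.82) and Farsa in Patl2-/- oocytes (0.88). Nars, the asparaginyl-tRNA synthetase, read between 13.33 and 14.20 over all arrays and differed by 0.46 (adjusted p = 0.258) in WT and by 0.12 in Patl2-/- oocytes. The subunits of phenylalanyl-tRNA synthetase were both higher at MII, Farsa by 0.53 (SE 0.33) in WT and 0.48 (SE 0.27) in Patl2-/- oocytes, and Farsb by 0.15 (SE 0.16) and 0.40 (SE 0.13, adjusted p = 0.102). Gars differed by 0.26 (SE 0.15) in WT and by -0.27 (SE 0.12) in Patl2-/- oocytes, and Tars by -0.22 (SE 0.24) and -0.15 (SE 0.20). Of the 4 genes with TGATGNAA in the promoter, Iars was thus the only one called, and Yars read 4.55 on 9 arrays and 4.58 on the other one, below background throughout.

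**Figure D4:**
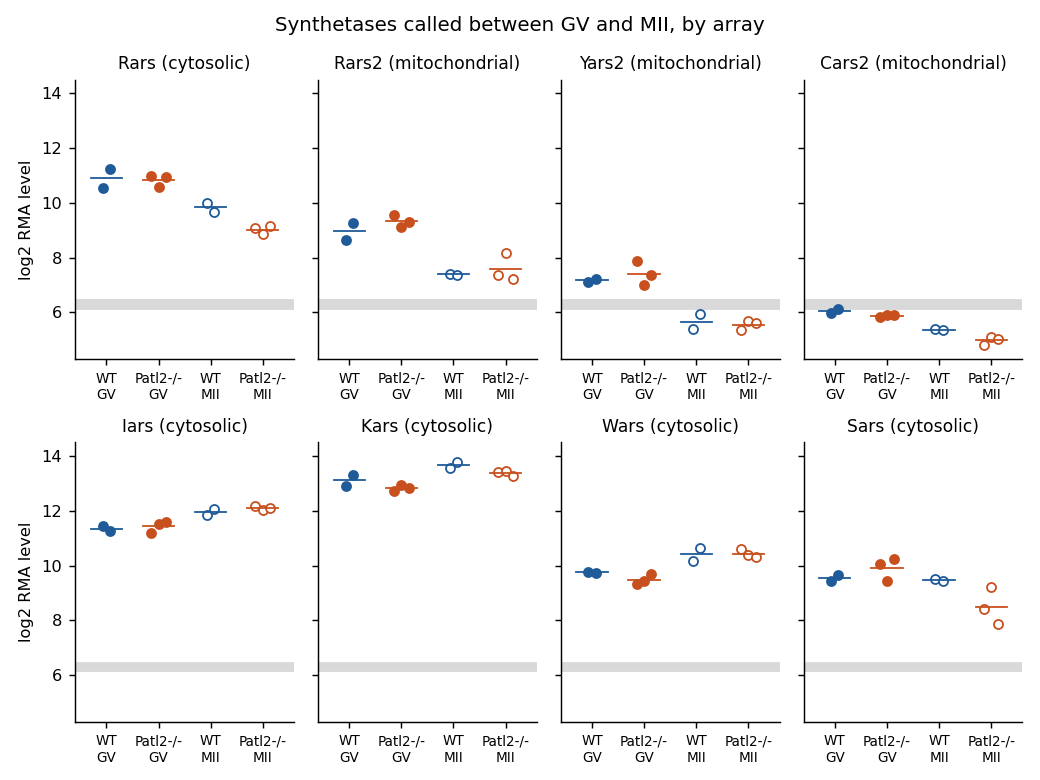
Log2 RMA level on each array of 8 synthetases called between GV and MII in at least 1 genotype (points; lines are group means), with WT in blue, Patl2-/- in orange, GV filled and MII open; the grey band spans the 90th percentile of the negative controls, 6.14 to 6.46. Rars and Rars2 fall but stay above the band, Yars2 falls below it, Cars2 is at or below it throughout, and Iars, Kars and Wars are higher at MII. Kars and Wars were called in Patl2-/- oocytes only. Mars, Ears2, Iars2, Sars2 and Tars2, which were also called lower in Patl2-/- oocytes, are not drawn.

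In the deposited scaling no mitochondrial synthetase rose in either genotype, while 3 of 16 fell in WT and 7 of 16 in Patl2-/- oocytes. Of all clusters, 1.96% rose and 5.19% fell in WT, and 3.37% and 7.14% in Patl2-/- oocytes. With a mean level of at least 6, 6.2% rose and 17.4% fell in WT, and 11.2% and 22.2% in Patl2-/- oocytes. At that level, 2 of 5 mitochondrial genes fell in WT and 3 of 5 in Patl2-/- oocytes. In Patl2-/- oocytes Vars2 rose after cyclic loess, and Vars2 and Lars2 rose after the second quantile normalisation (0.54 and 0.40). The median change of the 16 was -0.07 in WT and -0.14 in Patl2-/- oocytes, beside 0.02 and -0.01 over all clusters. The cytosolic medians were 0.01 and -0.02, and those of the scaffolds -0.82 and -0.59. After the second quantile normalisation the mitochondrial medians were -0.02 in both genotypes, the cytosolic ones 0.38 and 0.25, and those of the scaffolds -0.47 and -0.18. Over the 5 mitochondrial genes with a mean level of at least 6 the medians were -0.28 and -0.73.

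Rars2, the mitochondrial arginyl-tRNA synthetase, stayed above background on every array. It went from 8.66 and 9.27 to 7.41 and 7.37 in WT, a fall by 1.58 (SE 0.32, adjusted p = 0.0237), and from 9.55, 9.11 and 9.32 to 7.36, 8.17 and 7.21 in Patl2-/- oocytes, a fall by 1.75 (SE 0.26, adjusted p = 0.00419). The stages did not overlap in either genotype, and the cytosolic and the mitochondrial gene for the same amino acid, arginine, thus both fell. The WT call was lost when either WT MII array or WT GV replicate 2 was left out (highest adjusted p 0.129).

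Yars2, the mitochondrial tyrosyl-tRNA synthetase, went from 7.13 and 7.22 at GV to 5.41 and 5.93 at MII in WT, and from 7.89, 7.02 and 7.36 to 5.37, 5.69 and 5.61 in Patl2-/- oocytes. It was above background on all 5 GV arrays and on none of the 5 MII arrays, which makes the change at least 1.84-fold in WT (adjusted p = 0.0148) and at least 2.1-fold in Patl2-/- oocytes (adjusted p = 0.00137). The fitted differences were -1.50 (SE 0.27) and -1.86 (SE 0.22). The WT call was lost without WT GV replicate 1, WT GV replicate 2 or WT MII replicate 1 (highest adjusted p 0.103).

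Sars2, the mitochondrial seryl-tRNA synthetase, went from 7.23, 7.55 and 7.34 to 6.99, 6.52 and 6.43 in Patl2-/- oocytes, a fall by 0.73 (SE 0.16, adjusted p = 0.0241). This call was lost without replicate 2 or 3 of Patl2-/- GV or Patl2-/- MII oocytes (highest adjusted p 0.0838). In WT it went from 7.47 and 7.61 to 7.12 and 7.40, a difference of -0.28 (SE 0.20). Fars2, the mitochondrial phenylalanyl-tRNA synthetase, was clear of background on all arrays, read between 9.73 and 10.26, and differed by -0.21 (SE 0.15) in WT and -0.10 (SE 0.12) in Patl2-/- oocytes.

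The remaining called mitochondrial genes were below background on all 10 arrays, so no fold is given for them. Cars2 had the most regular differences, from 5.97 and 6.14 to 5.38 and 5.34 in WT (-0.69, SE 0.11, adjusted p = 0.00743) and from 5.85, 5.90 and 5.91 to 4.81, 5.10 and 5.05 in Patl2-/- oocytes (-0.90, SE 0.09, adjusted p = 0.000544). Its calls were kept in all 10 fits with 1 array left out. Tars2 (-0.49), Iars2 (-0.37) and Ears2 (-0.32) were called in Patl2-/- oocytes only, with adjusted p of 0.0198, 0.0184 and 0.025, and each call was lost in 3 to 5 of the 10 fits, each time without a Patl2-/- array (highest adjusted p 0.0739). The WT estimates for the 3 genes were -0.25, -0.06 and -0.10, and none of these genes was called in the test of the difference between genotypes. Hars2 read between 3.95 and 4.32, below background on all arrays.

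Proteins that act on tRNA before or after charging were examined as a list of 20 genes, of which 17 had a cluster of their own. Between the genotypes, Trnt1, which adds the CCA tail to tRNAs, was the 1 gene called at MII, with group means of 9.39 in Patl2-/- and 10.03 in WT oocytes (-0.64, SE 0.09, adjusted p = 0.0275). No gene of the list was called at GV, the list medians were 0.01 at GV and -0.04 at MII, and the average over stages added Tufm, the mitochondrial elongation factor that delivers charged tRNAs (-0.49, SE 0.10, adjusted p = 0.0485). Of all clusters, 0.462% were called lower at MII and 1.11% in the average. Among clusters with a mean level of at least 6, these shares were 1.59% and 3.82%. In the maturation comparisons 4 of 17 fell and 0 rose in each genotype, with list medians of -0.19 in WT and -0.33 in Patl2-/- oocytes. That count stands beside 5.19% (WT) and 7.14% (Patl2-/-) of all clusters that fell, and beside 17.4% and 22.2% of those with a mean level of at least 6. The 17 genes were not filtered on level, so their count is not directly comparable with the shares at that level. After the second quantile normalisation 2 fell and 1 rose in WT, and 3 fell in Patl2-/- oocytes. Under that scaling 4.3% of all clusters fell and 7.11% rose in WT, and 5.42% and 9.34% in Patl2-/- oocytes. Among clusters with a mean level of at least 6, 13.3% fell and 25.7% rose in WT, and 15.8% and 31.9% in Patl2-/- oocytes. In the deposited scaling the same genes were called in both: Eef1b2 and Eef1d, exchange factors of the cytosolic elongation factor that carries charged tRNA, Pstk, the kinase that modifies seryl-tRNA on the way to selenocysteine, and Prorsd1.

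Pstk had the deepest change of the list, from a mean of 8.44 to 6.63 in WT (-1.81, SE 0.20, adjusted p = 0.00126) and from 8.49 to 6.99 in Patl2-/- oocytes (-1.50, SE 0.16, adjusted p = 0.000848). Eef1d went from 9.56 to 8.73 and from 9.26 to 8.48, and Eef1b2 from 8.32 to 7.49 and from 8.41 to 7.83. Prorsd1 stood below background at both stages. Qrsl1, a subunit of the mitochondrial amidotransferase that makes glutaminyl-tRNA, differed by -1.17 in Patl2-/- oocytes (adjusted p = 0.07) and was not called.

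Genes of the amino acid response, which is set off when uncharged tRNA activates the kinase encoded by Eif2ak4 (GCN2), were examined as a list of 16, of which 15 were measured. None was called between genotypes at GV or at MII alone, with list medians of -0.10 and -0.18. In the average over both stages 1 was called higher and 3 lower in Patl2-/- oocytes, beside 0.776% and 1.11% of all clusters. Among clusters with a mean level of at least 6 the shares were 2.83% and 3.82%. Ppp1r15a, a regulator of eIF2 alpha dephosphorylation, differed by -0.999 (SE 0.14, adjusted p = 0.0174), Ddit4, an inhibitor of mTORC1, by -0.52 (SE 0.10, adjusted p = 0.0479) and Eif2ak4 by -0.42 (SE 0.07, adjusted p = 0.0364). Slc7a11, the cystine transporter, was higher by 0.42 (SE 0.05, adjusted p = 0.0133). Atf4, the transcription factor of the response, differed by -0.31 (adjusted p = 0.156), and Impact, an inhibitor of GCN2 signalling, by 0.98 (adjusted p = 0.102), neither of them called.

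Between GV and MII, Ddit3, the stress factor CHOP, had the deepest change of this list, from a mean of 12.75 to 9.61 in WT (-3.14, SE 0.59, adjusted p = 0.0162) and from 12.39 to 8.45 in Patl2-/- oocytes (-3.94, SE 0.48, adjusted p = 0.00143). In WT 4 of 15 fell (Asns, Atf4, Ddit3 and Phgdh) and 0 rose. In Patl2-/- oocytes 2 fell (Asns and Ddit3) and 4 rose (Ddit4, Eif2ak4, Ppp1r15a and Slc3a2). Of all clusters, 5.19% fell and 1.96% rose in WT, and 7.14% fell and 3.37% rose in Patl2-/- oocytes, or 17.4%, 6.2%, 22.2% and 11.2% of those with a mean level of at least 6. After the second quantile normalisation 1 of the list fell and 5 rose in WT, and 2 fell and 6 rose in Patl2-/- oocytes. Under that scaling 4.3% of all clusters fell and 7.11% rose in WT, and 5.42% and 9.34% in Patl2-/- oocytes. Among clusters with a mean level of at least 6, 13.3% fell and 25.7% rose in WT, and 15.8% and 31.9% in Patl2-/- oocytes. Asns, the asparagine synthetase, was below background throughout, and the Atf4 call in WT stood at the threshold (adjusted p = 0.0498). The list medians were 0.03 in WT and 0.02 in Patl2-/- oocytes. None of the 15 passed the interaction test, which asks whether the change from GV to MII differed between the genotypes.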

How the data were processed

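RNA of pooled WT and Patl2-/- oocytes at GV and MII was labelled with the Affymetrix WT Pico kit and hybridised to Clariom D mouse arrays. The deposited table holds log2 values that the authors normalised with RMA over the whole set of 10 arrays in Affymetrix Expression Console (version and genome build not given in the sources used here). RMA aligns the intensity distributions of the arrays, so a shift of most transcripts in one direction can be reduced or lost. The deposited values were still not fully alike, with 16601 to 16913 clusters above a level of 6 at GV and 15624 to 15856 at MII. RMA can also give 1 cluster the same value on several arrays.

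Of 72688 features, 6732 control probes were set apart and 65956 transcript clusters were tested. Clusters were named through the platform annotation, in which 30638 clusters have 1 gene, 2176 have several and 33142 have none. For each member, the cluster annotated to it alone with the highest mean over the 10 arrays was used. One mean per group was fitted on all arrays with limma 3.58.1 in R 4.3.3 (lmFit, contrasts, eBayes; 6 residual degrees of freedom and 2.02 prior ones), with Benjamini-Hochberg adjustment over every cluster tested. Tests were two-sided. Background was the 90th percentile of 5222 negative control probes on each array; a fold is given as "at least" where no array of the lower group exceeded it, using that percentile in place of lower values. On simulated data with 200 clusters changed by 1 on the log2 scale, the fit recovered 69.6% of them for the GV and 73.5% for the MII genotype comparison, and 65.2% (WT) and 77.8% (Patl2-/-) for maturation, each over 65956 clusters. Unchanged clusters called per simulation averaged 7.8, 7, 7 and 8.4 in that order. The changed clusters were drawn from all clusters, with normal noise at each cluster's fitted spread, so recovery of the members themselves was not measured. The small number of arrays limits the precision.

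Groups came from the sample labels. Each sample is labelled as a biological replicate, but which animals went into a pool is not stated, so the p-values measure only how far these pools spread. The members and gene lists were chosen with earlier results of these data known. Members called in at least 1 comparison, the 2 with the largest difference per class and comparison, and the highest and lowest of each class were named with array values; other members by counts and ranges. In the lists, genes called in at least 1 comparison and the 2 with the largest differences were named; Atf4, Qrsl1 and the oocyte marker Zp3 were added after their values were seen. Alternatives covered scaling, filtering, variance model, arrays in the fit, replicate block, arrays left out and the 2-group test of the methods. Promoters were read from a RefSeq table (GRCm38.p6); figures were drawn with matplotlib 3.10.9.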

Additional observations from a re-analysis of the deposited data

How the results depend on the processing

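Among the members called in at least 1 comparison and the counts and medians above, most kept their direction and their side of the threshold under median centring, cyclic loess, a filter on mean level, a trended robust variance and fits on clusters of 1 gene alone. A second quantile normalisation moved the maturation medians, in WT to 0.379 (cytosolic) and -0.473 (scaffold) and in Patl2-/- oocytes to 0.245 (cytosolic), -0.0168 (mitochondrial) and -0.175 (scaffold), and turned Qars to 0.363 in WT and 0.327 in Patl2-/- oocytes; the cause was not tested. Keeping only members with a mean level of at least 6 moved the mitochondrial median to 0.082 at GV, 0.091 at MII, 0.0795 in the average, -0.281 for WT maturation and -0.728 for Patl2-/- maturation, since 5 of 16 genes remained. The GV count of 1 member called went to 0 with a trended robust variance, where 30 of all 65956 clusters were called. Fits on only the compared arrays gave 0 called at GV, 0 at MII and 0 for WT maturation, beside 0, 0 and 628 of all 65956 clusters. The methods' test (2 groups, at least 2-fold at an unadjusted p under 0.05) called 1 at GV, 1 at MII, 2 for WT maturation and 5 for Patl2-/- maturation, and after Benjamini-Hochberg adjustment 0, 0, 0 and 2. Of all 65956 clusters it called 321, 776, 2427 and 3388, and 3, 10, 9 and 2243 after adjustment.

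Leaving out each array in turn gave 0 to 1 members called at GV, 0 to 1 at MII, 2 to 6 for WT maturation and 8 to 15 for Patl2-/- maturation, and a mitochondrial median for Patl2-/- maturation of -0.214 to -0.0925. Where that left 1 WT array in a group, its spread was taken from the other groups. The labels do not say whether equal replicate numbers mark paired samples. Same-numbered deviations from the group means correlated at 0.227 and 0.136 at GV and -0.13 and -0.0997 at MII. As each WT group has 2 arrays, their deviations mirror each other, so these correlations cannot decide whether samples were paired. With the replicate number as a block, 0 members were called at GV, 0 at MII, 1 in the average, 4 for WT and 11 for Patl2-/- maturation. Of all 65956 clusters, 1, 53, 308, 3927 and 6210 were called with that block, in the same order. Averaging a gene’s clusters changes nothing here, as each member has 1. Counting the cluster shared by Exosc6 and Aars, an alternative chosen after seeing the data, added no call. Over all clusters the calls ranged widely. At GV the 80 main calls became 0 on the compared arrays alone, and at MII the 547 became 0.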
